A study of Homo sapiens with 8 samples.

Results

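The genes described here encode the proteasome and the factors that assemble or regulate it. They were the rows of the count table that GENCODE annotates as protein coding and whose symbol begins with PSMA, PSMB, PSMC, PSMD, PSME, PSMF or PSMG followed by a digit, which gave 50 of 58302 genes. PSMC3IP, a meiotic recombination factor, and PSME3IP1, a nuclear protein that binds the PSME3 activator, are taken in by their names but are not proteasome proteins, so 48 of the 50 genes encode the particle or its helpers. RNA sequencing compared 2 kinds of DLD1, a colorectal cancer line of human origin. One stably overexpressed wild-type TRMT6 and TRMT61A from a lentiviral vector (OE-WT), and the other carried the vector alone (CTRL). TRMT6 and TRMT61A form the enzyme that adds a methyl group to adenosine in RNA (m1A). Both groups were washed in cycloheximide, which stalls ribosomes, before lysis, and whether each stable line was 1 clone is not given in the sources used here. There were 2 libraries per group, and nothing in the labels ties them to separate cultures, so the p-values measure the spread between these libraries.

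The 26S proteasome degrades proteins that carry ubiquitin. Its 20S core is a barrel of outer alpha rings and inner beta rings, of which PSMB5, PSMB6 and PSMB7 carry the cutting sites, and its 19S regulator recognises ubiquitin, unfolds the substrate with a ring of ATPases and feeds it into the barrel. Interferon replaces the 3 cutting subunits with PSMB8, PSMB9 and PSMB10 to form the immunoproteasome, which makes peptides for display on HLA class I molecules. When the proteasome is inhibited, the transcription factor NFE2L1 raises its subunits together.

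The libraries held between 10327498 and 12379671 counts, and TRMT6 and TRMT61A had log2 fold changes of 1.86 and 1.21 in OE-WT over CTRL, with no overlap between the groups. The 8 epithelial markers of a colon line summed to between 10874 and 12451 CPM, which are counts scaled to a common library size with TMM factors. KRT8 and KRT18 made up most of this sum, VIL1 lay between 2.80 and 4.53 CPM and KRT20 between 8.36 and 27.1. These markers moved between the groups, with KRT8 (0.25) and KRT18 (0.30) higher and CDH1 (-0.29), KRT19 (-0.19) and KRT20 (-1.52) lower on the log2 scale, and their part in the results was not tested. The summed levels of fibroblast, leukocyte and endothelial markers stayed between 0.590 and 3.22 CPM, with 3 of 6, 1 of 6 and 2 of 4 of these markers at 0 in all 4 libraries, among them COL1A2, COL3A1, CD3E and CDH5. Mitochondrial genes held 33.5% and 29.9% of OE-WT counts, against 25.1% and 27.7% of CTRL counts. The groups did not overlap in this share, and its part in the results was not tested.

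Of the 50 genes, 48 passed the filter on low counts. Of these, 17 were higher in OE-WT cells and 1 was lower, and 30 did not pass. A call means a Benjamini-Hochberg adjusted p below 0.05, over 14133 genes, in the quasi-likelihood test of edgeR. The members called higher were 35.4% of those tested, where 9.44% of all genes tested were called higher. The 1 lower member was 2.08%, where 11.6% of all genes were called lower. Without PSMC3IP and PSME3IP1, 16 of 46 members tested (34.8%) were called higher and 1 lower. Proteasome transcripts were well counted, with a median of 1015 counts per library against 191 for all protein-coding genes tested. Among genes with a mean of at least 1000 counts, 9 of 24 proteasome genes, or 37.5%, were called higher, and 21.6% of all such genes were. The changes were small. The median log2 fold change was 0.16, against 0.01 over all genes tested, and 40 members lay above 0 and 8 below. No member passed an unadjusted p below 0.05 together with an absolute log2 fold change above 1, a rule that 3.15% of all genes passed. Both OE-WT libraries lay above both CTRL libraries in 29 members, which is 60.4% against 29.9% of all genes, and below them in 4 members (PSMA7, PSMB1, PSMB9 and PSME1), where 30.2% of all genes did so.

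The number of called members depended on the scaling and on single libraries. With library size alone, which leaves in the larger mitochondrial share of the OE-WT libraries and moved the median of all genes by -0.09, 5 members were called higher (PSMC1, PSMC5, PSMC6, PSMD1 and PSMD11) and 4 lower (PSMA7, PSMB1, PSMB9 and PSME1), so that higher calls fell from 94.4% to 55.6% of the member calls. Under that scaling 5.19% of all genes were called higher and 17.3% lower. DESeq2 called 6 members higher (PSMC1, PSMC4, PSMC5, PSMD11, PSMD13 and PSME3) and PSMB9 lower. Without CTRL library 1 the edgeR test called 6 members higher, and without OE-WT library 1 it called 11. PSMB9, PSMC1, PSMC4, PSMC5, PSMD11, PSME3 and PSMG1 kept their calls whichever library was left out. In bulk RNA, fewer cells with a transcript and less of it per cell cannot be told apart.

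**Figure D1:**
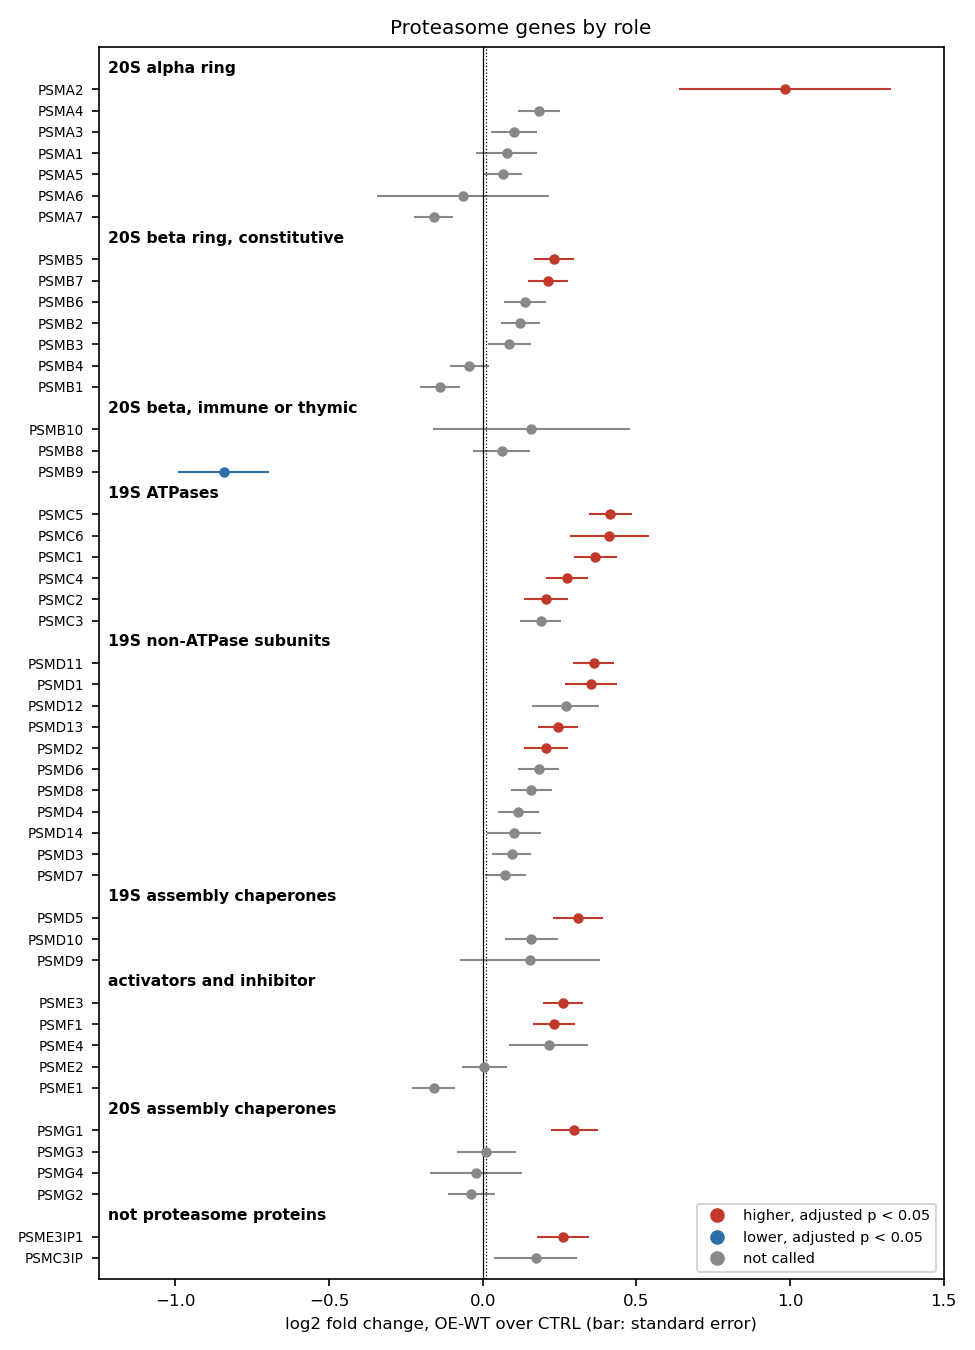
The points are log2 fold changes of OE-WT over CTRL for the 48 members tested, grouped by role, with standard errors as bars, red for higher and blue for lower at an adjusted p below 0.05, and grey for the rest; the dotted line is the median of all genes tested, 0.01. All 17 points of the 19S regulator (ATPases and non-ATPase subunits) lie right of 0, and PSMB9 is the 1 called point on the left.

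The 6 ATPases of the 19S regulator, which form the ring that unfolds substrates, were the subunit class with the most calls. PSMC1, PSMC2, PSMC4, PSMC5 and PSMC6 rose, or 83.3% of the 6, where 9.44% of all genes were called higher. Among genes with a mean of at least 1000 counts, 21.6% were called higher. Both OE-WT libraries lay above both CTRL libraries for all 6 ATPases, where 29.9% of all genes did so. The log2 fold changes of the 6 ATPases ran from 0.19 to 0.42 with a median of 0.32. PSMC5 (Rpt6; ENSG00000087191, chromosome 17, 63827152 to 63832026, plus strand on GRCh38) had 98.6 and 100.5 CPM in OE-WT cells, against 75.5 and 73.9 in CTRL cells. The groups were far apart against the spread within each, and the log2 fold change was 0.42 (standard error, SE, 0.07, adjusted p = 0.000178, edgeR). PSMC1 (Rpt2), whose tail helps to open the gate of the 20S barrel, had 126.8 and 126.5 CPM in OE-WT and 93.1 and 103.4 in CTRL cells. Its log2 fold change was 0.37 (SE 0.07, adjusted p = 0.000714, edgeR). PSMC4 (Rpt3) had 111.3 and 112.6 CPM against 94.1 and 91.0 in CTRL cells, a log2 fold change of 0.27. PSMC6 (Rpt4) was less even, with 37.1 and 28.6 CPM in OE-WT and 21.3 and 28.1 in CTRL cells, so that the lower OE-WT library barely cleared the higher CTRL library. Its log2 fold change was 0.41 (SE 0.13, adjusted p = 0.0250, edgeR), and the value was 0.22 without OE-WT library 1 and 0.22 without CTRL library 1, neither of which was called. PSMC2 (Rpt1) had 83.0 and 79.1 CPM against 68.5 and 72.0, a log2 fold change of 0.21 whose edgeR call was lost with any 1 library left out, with adjusted p between 0.0546 and 0.256. PSMC3 (Rpt5) had 135.4 and 130.2 CPM against 113.5 and 119.7 and missed the threshold, with an adjusted p of 0.0504 by edgeR. With the GC trend removed, the calls of PSMC6 (log2 fold change 0.30) and PSMC2 (0.09) were lost, whereas PSMC3 was called (0.27). PSMC6 and PSMC2 were not called in DESeq2 either.

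Opposite-strand genes share exon bases with both leading ATPases. NRDE2 covers 83.2% of the canonical exon bases of PSMC1, and FTSJ3 covers 13.7% of those of PSMC5. The labels describe a strand-specific kit, but the strand setting of the counting is not given in the sources used here, so reads of these partners cannot be told apart by the counts alone. FTSJ3 rose by a log2 fold change of 0.42 (adjusted p = 0.000451) and NRDE2 by 0.28 (adjusted p = 0.0147) in the same edgeR fit.

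Among the 11 non-ATPase subunits of the 19S regulator that are members, 4 (36.4%) rose, none fell and 7 did not pass. Of all genes 9.44% rose, and 21.6% of those with a mean of at least 1000 counts did. The log2 fold changes of these 11 subunits were all above 0, from 0.07 to 0.36 with a median of 0.18. In 10 of the 11, or 90.9%, both OE-WT libraries lay above both CTRL libraries, where 29.9% of all genes did so. PSMD11 (Rpn6; ENSG00000108671, chromosome 17, 32444379 to 32483319, plus strand), a scaffold that clamps the 19S lid to the 20S core, had 145.3 and 139.7 CPM in OE-WT and 108.7 and 113.2 in CTRL cells. This was the largest change of the class, a log2 fold change of 0.36 (SE 0.07, adjusted p = 0.000504, edgeR). PSMD1 (Rpn2), the largest scaffold subunit of the base, had 54.4 and 51.2 CPM against 39.0 and 43.7, a log2 fold change of 0.35. Its edgeR call was lost without CTRL library 1, where the value was 0.27 (adjusted p = 0.0668). PSMD13 (Rpn9), a lid subunit, had 209.1 and 221.2 CPM against 180.5 and 182.9, a log2 fold change of 0.24. PSMD2 (Rpn1), which docks ubiquitin shuttles, had 146.4 and 141.1 CPM against 116.8 and 132.4, a log2 fold change of 0.21. CTRL library 1 was low for PSMD2, and the value without it was 0.12. The edgeR call of PSMD2 was lost without OE-WT library 1, OE-WT library 2 or CTRL library 1, and that of PSMD13 without OE-WT library 2 (adjusted p = 0.0824) or CTRL library 1 (adjusted p = 0.0524).

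The ubiquitin receptor PSMD4 and the deubiquitinase PSMD14, which removes ubiquitin chains as substrates enter, were among the 7 that did not pass. PSMD4 had 124.8 and 128.7 CPM in OE-WT and 118.9 and 115.0 in CTRL cells. PSMD14 had 70.1 and 57.3 CPM against 57.3 and 61.4, and it was the 1 member of the class whose groups overlapped. PSMD12 had a log2 fold change of 0.27 and was called by edgeR with CTRL library 2 left out (adjusted p = 0.00280) but not with all 4 libraries. The remaining lid and base subunits PSMD3, PSMD6, PSMD7 and PSMD8 lay between 0.07 and 0.18.

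**Figure D2:**
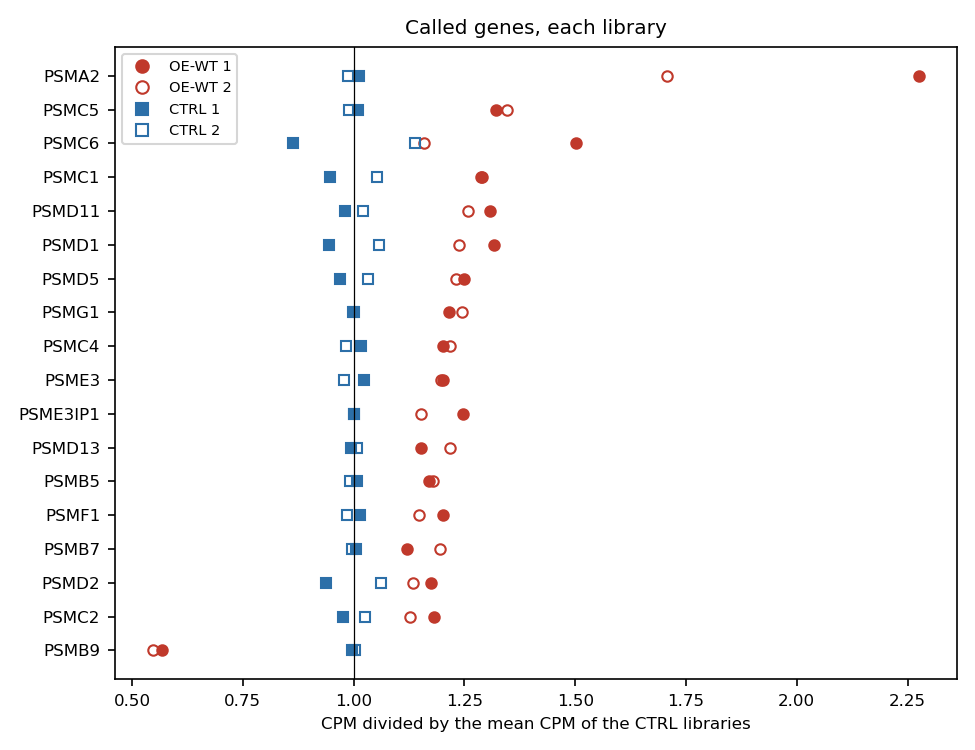
Each row is a called member, and the axis is its CPM in a library divided by the mean CPM of the CTRL libraries, with circles for OE-WT and squares for CTRL libraries (filled for library 1, open for library 2). The circles lie right of the squares in the 17 rows of higher genes, close together for PSMC6, and left of them for PSMB9.

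In the constitutive 20S core, 3 of 14 genes tested rose, none fell, and the median log2 fold change was 0.09. The 3 were 21.4%, where 9.44% of all genes and 21.6% of genes with a mean of at least 1000 counts were called higher. The beta rings held 2 of these 3 core genes, both with a cutting site. PSMB5, the chymotrypsin-like site and the main target of bortezomib, had 133.7 and 134.6 CPM in OE-WT and 115.1 and 113.2 in CTRL cells. Its libraries lay within 2 CPM of each other in each group, and the log2 fold change was 0.23 (SE 0.07, adjusted p = 0.0141, edgeR). PSMB7, the trypsin-like site, had 167.3 and 178.4 CPM against 149.9 and 148.5, a log2 fold change of 0.21. Both calls were lost with OE-WT library 2, CTRL library 1 or CTRL library 2 left out, with adjusted p between 0.0510 and 0.0653 for PSMB5 and between 0.0818 and 0.183 for PSMB7 by edgeR. PSMB6, the caspase-like site, had 102.3 and 100.9 CPM against 92.4 and 92.3 and was not called (log2 fold change 0.14, adjusted p = 0.157 by edgeR). The structural subunits PSMB1, PSMB2, PSMB3 and PSMB4 lay between -0.14 and 0.12, and PSMB1 had 154.0 and 154.9 CPM in OE-WT cells, below 170.6 and 169.6 in CTRL cells.

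In the alpha rings, which close the barrel and hold its gate, 1 of 7 genes tested was called higher. This was 14.3%, where 9.44% of all genes were called higher. PSMA7, the most abundant member per length of its canonical transcript, had 345.5 and 362.0 CPM in OE-WT and 391.1 and 399.3 in CTRL cells, and its log2 fold change of -0.16 did not pass (adjusted p = 0.0799, edgeR). PSMA1, PSMA3, PSMA4, PSMA5 and PSMA6 lay between -0.06 and 0.18. PSMA2 was called higher from 26 and 20 counts in OE-WT against 15 and 14 in CTRL cells, a log2 fold change of 0.98 (SE 0.35, adjusted p = 0.0468, edgeR). Its call was lost without OE-WT library 1, CTRL library 1 or CTRL library 2, with adjusted p up to 0.292. PSMA8, the alpha subunit of the testis, had 0 counts in all 4 libraries, which allows up to 0.302 CPM in the smallest effective library.

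The low counts of PSMA2 stand out, because every 20S core holds this subunit. The annotation places another protein-coding gene without a symbol on the same strand over 100% of the canonical exon bases of PSMA2, over 81.4% of those of PSMA6, 67.0% of PSMA1, 56.1% of PSMB10 and 28.8% of PSMD9. PSMA2, PSMA6, PSMB10 and PSMD9 had 1.20, 3.04, 1.98 and 2.05 CPM per kb of canonical transcript as means of the 4 libraries, and PSMA1 had 23.2. The other alpha subunits tested had between 24.1 and 389 CPM per kb. How the counting treated reads shared by overlapping genes is not given in the sources used here, and its part in these levels was not tested. Without PSMA1, PSMA2 and PSMA6, 2 of 11 constitutive core genes rose, or 18.2%. Of all genes 9.44% were called higher, and of those with a mean of at least 1000 counts 21.6% were.

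**Figure D3:**
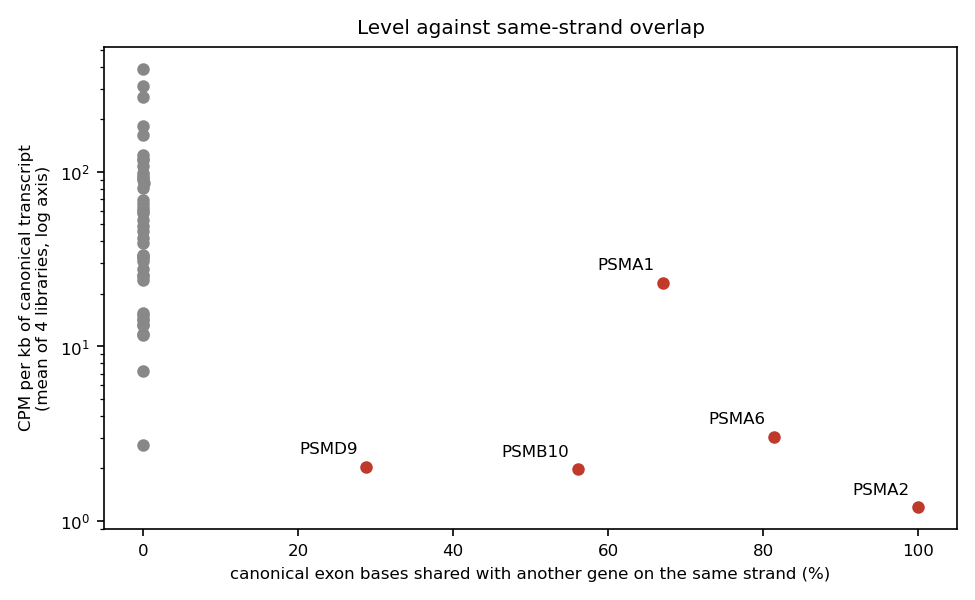
Each point is 1 of the 48 members tested; the horizontal axis is the share of its canonical exon bases that another gene covers on the same strand, in percent, and the vertical axis is its mean level over the 4 libraries in CPM per kb of canonical transcript, on a log scale. The 5 labelled genes share between 28.8% and 100% of these bases, and 4 of them lie at or under 3.04 CPM per kb.

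Set against each other, the regulator and the core of the particle moved by different amounts. Of the 17 members that are subunits of the 19S regulator, 9 (52.9%) rose, and both OE-WT libraries were above both CTRL libraries in 16 (94.1%). ADRM1 and SEM1, 19S subunits with other symbols, are not in these numbers or in the ratio that follows, and neither was called. In the constitutive 20S core 3 of 14 (21.4%) rose, and the OE-WT libraries were above in 7 (50%). Of all genes 9.44% rose, 21.6% of those with a mean of at least 1000 counts did, and 29.9% had the OE-WT libraries above. The counts summed over the 19S subunits, divided by those summed over the constitutive 20S subunits, were 0.976 and 0.954 in OE-WT cells, against 0.835 and 0.870 in CTRL cells. This ratio, which does not depend on the scaling of the libraries and was chosen after the values were seen, did not overlap between the groups and was 1.13 times as high in OE-WT cells. An exact two-sided permutation test gave p = 0.333, the smallest that 2 libraries against 2 allow. Without the 3 alpha subunits overlapped by another gene the ratio was 1.13 times as high as well. All members together took 0.460% and 0.479% of OE-WT counts and 0.464% and 0.456% of CTRL counts (exact two-sided permutation p = 0.667). Of the counts on protein-coding nuclear genes alone they took 0.738% and 0.728% against 0.654% and 0.665%, which did not overlap (exact two-sided permutation p = 0.333).

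PSMB9 was the 1 member that fell. It encodes the immune subunit that takes the place of PSMB6. The gene lies on chromosome 6 (ENSG00000240065, 32844136 to 32859851, plus strand) beside PSMB8, which it overlaps by 544 bases. TAP1, with which it shares a promoter region, lies within this span on the minus strand (32845209 to 32853816). PSMB9 had 87 and 86 counts in OE-WT cells, against 198 and 191 in CTRL cells, or 8.76 and 8.45 CPM against 15.4 and 15.5. The groups were far apart, and the log2 fold change was -0.84 (SE 0.15, adjusted p = 0.000290, edgeR), with values between -0.87 and -0.83 when each library was left out. PSMB8, which takes the place of PSMB5, did not pass, with 34.8 and 39.4 CPM in OE-WT and 34.5 and 36.6 in CTRL cells (log2 fold change 0.06, adjusted p = 0.687, edgeR). PSMB10, which takes the place of PSMB7, had 18 to 24 counts in each library and overlapping groups. PSMB11, the thymic subunit, had 2 counts in OE-WT library 1 and 0 in the others. The counts of PSMB9 divided by those of PSMB8, a measure without scaling, were 0.252 and 0.214 in OE-WT cells, against 0.446 and 0.424 in CTRL cells. Divided by exon length, the immune subunits made up 5.31% and 5.51% of the counts of the 6 cutting subunits in OE-WT cells, against 6.60% and 6.88% in CTRL cells, with no overlap. On the length of the canonical transcript the same shares were 9.03% and 9.45% against 11.3% and 11.8%.

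**Figure D4:**
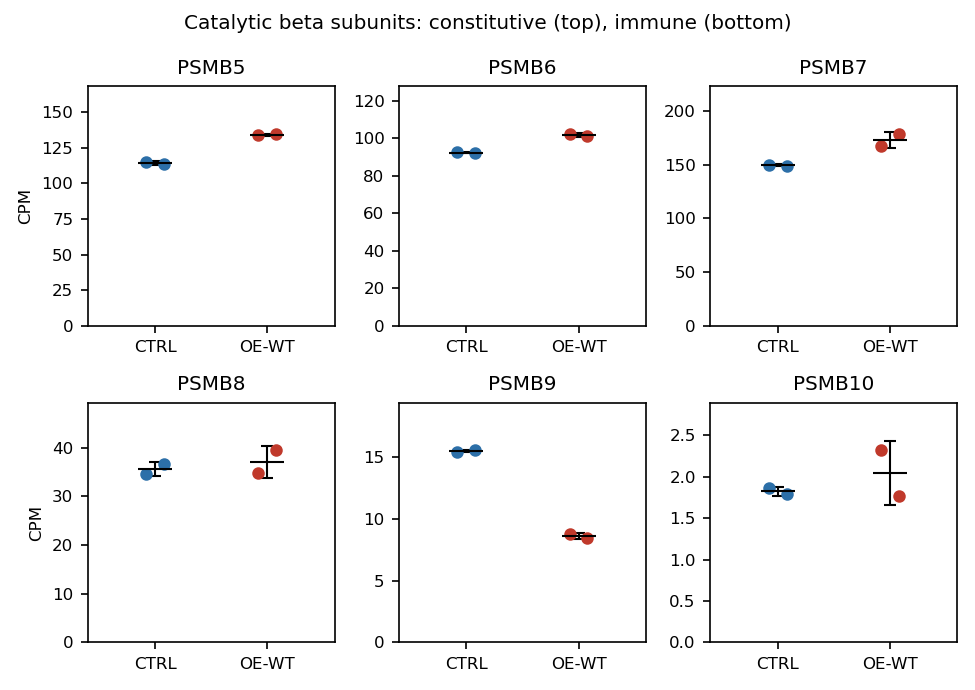
Each panel shows 1 cutting subunit, with CPM on a vertical axis from 0, points for the 2 libraries per group, and the mean with its SD in black. The constitutive PSMB5, PSMB6 and PSMB7 are higher in both OE-WT libraries, PSMB8 and PSMB10 overlap between groups, and PSMB9 lies at 8.45 to 8.76 CPM in OE-WT and 15.4 to 15.5 in CTRL libraries.

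**Figure D5:**
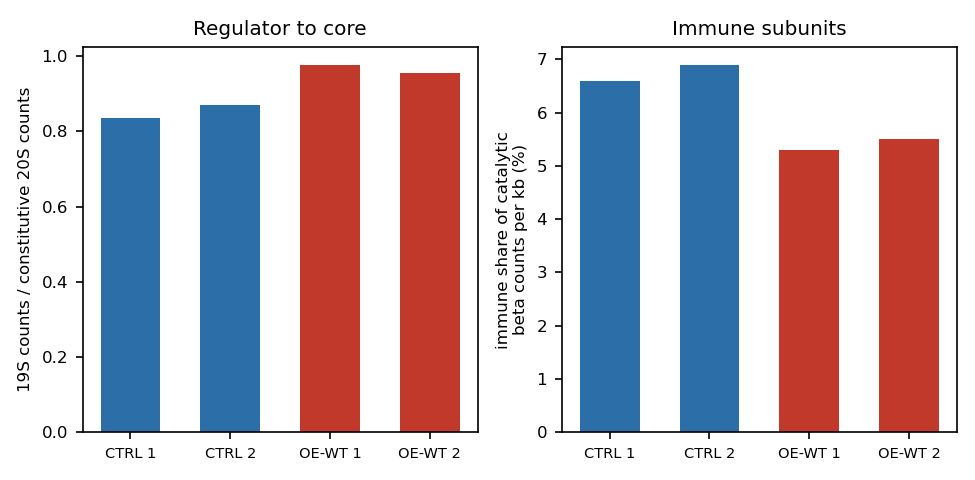
The left bars give the summed counts of the 19S subunits divided by those of the constitutive 20S subunits in each library, and the right bars the share of PSMB8, PSMB9 and PSMB10 in the length-scaled counts of the 6 cutting subunits, in percent. The OE-WT bars are above the CTRL bars on the left (0.954 and 0.976 against 0.835 and 0.870) and under them on the right (5.31 and 5.51 against 6.60 and 6.88).

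The promoters of PSMB9 and PSMB8 are shown because these neighbouring immune subunits differed in the data. Those of PSMB5 and PSMC4 are examples of members that rose and hold the antioxidant response core, as 6 of 16 such promoters did. The sequences are from RefSeq on GRCh38.p14, from 250 bases before the start of the canonical transcript to 50 after it, written 5′ to 3′ on the strand of the gene. Other annotated transcripts of PSMB9, PSMB8 and PSMB5 start further upstream, so that these windows lie inside the gene spans. They lie at chr6:32853942-32854241 (plus strand) for PSMB9, chr6:32843998-32844297 (minus strand) for PSMB8, chr14:23034851-23035150 (minus strand) for PSMB5 and chr19:39970915-39971214 (plus strand) for PSMC4. Capitals mark the antioxidant response core, the element that NFE2L1 and NFE2L2 bind, in PSMB9, PSMB5 and PSMC4. In PSMB8 they mark the interferon-stimulated response core and the gamma-activated site, which interferon-induced factors bind. The gamma-activated site was also found in PSMB5, with first bases at -158 and -15 from the start, and in PSMC4, at -55. These matches are not marked, and the match at -15 overlaps the marked core of PSMB5.
PSMB9: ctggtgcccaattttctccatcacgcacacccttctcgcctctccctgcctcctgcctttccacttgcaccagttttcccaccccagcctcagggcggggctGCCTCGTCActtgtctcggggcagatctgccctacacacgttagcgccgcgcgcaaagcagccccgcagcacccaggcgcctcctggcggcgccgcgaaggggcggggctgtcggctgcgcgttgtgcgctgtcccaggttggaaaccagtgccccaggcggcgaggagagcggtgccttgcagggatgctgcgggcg
PSMB8: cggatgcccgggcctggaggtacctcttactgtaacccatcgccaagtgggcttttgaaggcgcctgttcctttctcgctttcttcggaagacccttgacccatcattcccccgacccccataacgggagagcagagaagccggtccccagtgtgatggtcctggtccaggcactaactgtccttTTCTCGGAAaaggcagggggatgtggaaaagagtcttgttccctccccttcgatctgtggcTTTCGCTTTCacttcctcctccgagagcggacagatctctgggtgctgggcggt
PSMB5: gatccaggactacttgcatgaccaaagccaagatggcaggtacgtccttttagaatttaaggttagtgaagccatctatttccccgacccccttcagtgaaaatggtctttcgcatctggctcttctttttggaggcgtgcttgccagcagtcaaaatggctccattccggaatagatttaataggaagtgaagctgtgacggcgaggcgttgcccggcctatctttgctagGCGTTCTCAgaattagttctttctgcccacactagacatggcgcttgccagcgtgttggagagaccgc
PSMC4: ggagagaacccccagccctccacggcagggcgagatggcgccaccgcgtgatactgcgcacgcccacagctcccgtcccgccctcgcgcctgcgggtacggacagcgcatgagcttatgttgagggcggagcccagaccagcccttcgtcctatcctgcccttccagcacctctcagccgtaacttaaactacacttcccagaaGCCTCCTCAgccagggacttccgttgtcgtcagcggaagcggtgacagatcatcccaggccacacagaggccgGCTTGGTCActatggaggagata

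Letters of the antioxidant response core, searched as TGACNNNGC or TGAGNNNGC on both strands, were found in 19 of the 44 members with a promoter entry, or 43.2%, and in 29.1% of all 35116 promoters of the same length. They stood in 6 of 16 promoters of members that rose and in 12 of 25 of members tested that were not called. The interferon-stimulated response core, GAAANNGAAA, was found in 6 members (PSMB4, PSMB8, PSMB10, PSME1, PSME2 and PSMG4), or 13.6% against 3.57% of all promoters, and none of these 6 was called. The gamma-activated site, TTCNNNGAA, was found in 15.9% of members and 7.66% of all promoters. It stood in 4 of 16 promoters of members that rose and in 2 of 25 of members tested that were not called. The CCAAT box was found in 45.5% of members and 34.6% of all promoters, with 6 of 16 and 12 of 25 in the same order. Matches to different motifs could overlap and were counted apart. PSMA7, PSMB1, PSMB6, PSMB7, PSMD4 and PSMG3 had no entry.

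Of the 5 genes for the activators and the inhibitor, PSME3 and PSMF1 rose, or 40%, where 9.44% of all genes were called higher. Among genes with a mean of at least 1000 counts, 21.6% were called higher. PSME3 (PA28-gamma), the nuclear activator that opens the 20S core without ATP, had 183.3 and 182.8 CPM in OE-WT and 156.1 and 149.3 in CTRL cells, a log2 fold change of 0.26 (SE 0.06, adjusted p = 0.00581, edgeR). PSMF1 (PI31), an inhibitor of the 20S core in vitro, had 104.4 and 99.7 CPM against 88.1 and 85.6, a log2 fold change of 0.23. The edgeR call of PSMF1 was lost without OE-WT library 1, CTRL library 1 or CTRL library 2, with adjusted p between 0.0509 and 0.114. PSME1 and PSME2, the interferon-induced subunits of the cytoplasmic activator PA28, lie 4394 bases apart on chromosome 14 and did not pass. PSME1 had 89.5 and 89.7 CPM in OE-WT, below 104.1 and 95.9 in CTRL cells, and PSME2 had 69.5 and 67.2 against 68.1 and 68.1. PSME4 (PA200), the activator of spermatogenesis and chromatin, had 23.6 and 19.2 CPM against 16.8 and 20.1, with overlapping groups.

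Assembly of the particle needs its own chaperones. For the 20S core, PSMG1, which pairs with PSMG2 to build the alpha ring, had 64.0 and 65.6 CPM in OE-WT and 52.6 and 52.7 in CTRL cells, a log2 fold change of 0.30 (SE 0.07, adjusted p = 0.00646, edgeR). Its partner PSMG2 had 62.0 and 64.8 CPM against 67.7 and 62.3 and overlapped, as did PSMG3 and PSMG4, which work as a second pair. For the base of the 19S regulator, PSMD5 (S5b), which holds back the joining of base and core, had 54.4 and 53.7 CPM against 42.2 and 45.0, a log2 fold change of 0.31. Its edgeR call was lost without CTRL library 1, where the value was 0.26 (adjusted p = 0.0760). The calls of PSMG1 and PSMD5 were also lost in DESeq2, with library size only and with the GC trend removed. PSMD10 (gankyrin) and PSMD9 were not called, at 0.16 and 0.15. PSME3IP1, which is no proteasome protein, had 49.7 and 45.9 CPM against 39.9 and 39.9 and a log2 fold change of 0.26, whose call was lost without OE-WT library 1, CTRL library 1 or CTRL library 2, with adjusted p between 0.0775 and 0.213 by edgeR.

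Of 13 proteasome proteins with other symbols, 2 were higher, none was lower and 11 were not called, where 9.44% of all genes were higher and 11.6% lower. UCHL5, a deubiquitinase of the 19S regulator, had 13.3 and 11.6 CPM in OE-WT and 8.40 and 9.17 in CTRL cells, a log2 fold change of 0.50. UBE3C, a ubiquitin ligase that binds the proteasome, had 60.4 and 58.3 CPM against 45.2 and 53.4, a log2 fold change of 0.27. Both calls were lost without OE-WT library 1 and without CTRL library 1, with adjusted p between 0.103 and 0.360 by edgeR, and in DESeq2, with library size only and with a GC trend removed. POMP, the chaperone that completes the beta rings, had 99.0 and 97.9 CPM against 101.7 and 104.6 and did not pass (log2 fold change -0.07).

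NFE2L1, the factor that raises proteasome genes when the proteasome is inhibited, was lower under overexpression. It had 2381 and 2569 counts in OE-WT cells, against 4419 and 3942 in CTRL cells, or 239.9 and 252.5 CPM against 343.5 and 320.0. The groups did not overlap, and the log2 fold change was -0.43 (SE 0.07, adjusted p = 7.33e-05, edgeR). Of the 7 genes tested in a list of NFE2L1, NFE2L2, their MAF partners and the enzymes that activate NFE2L1, none rose and 2 fell, where 11.6% of all genes fell. The other was MAFK at -0.33, which was not called in DESeq2 (adjusted p = 0.0671) and was at -0.16 with the GC trend removed (adjusted p = 0.189, edgeR). DDI2, the protease that cleaves NFE2L1, had 7.45 and 8.16 CPM in OE-WT, above 4.66 and 6.09 in CTRL cells, and just missed the threshold (log2 fold change 0.54, adjusted p = 0.0519, edgeR). The related DDI1 had 0 counts in all libraries, and NFE2L2 had overlapping groups.

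Of 17 genes read for ubiquitin, its activating enzymes and its shuttles, 3 rose, 1 fell and 13 did not pass, where 9.44% of all genes rose and 11.6% fell. UBA6, an activating enzyme, rose by 0.63, RAD23B, a shuttle to the proteasome, by 0.33, and VCP, the segregase that extracts ubiquitinated proteins, by 0.25 on the log2 scale. The shuttle UBQLN1 fell by 0.52. Without CTRL library 1, VCP (adjusted p = 0.174) and UBA6 (adjusted p = 0.0540) were not called by edgeR. VCP was also not called with library size only, nor UBA6 in DESeq2.

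Genes for loading peptides onto HLA class I lay mostly on the other side. Of 12 read here, 7 fell and 5 did not pass, where 11.6% of all genes fell, with a median log2 fold change of -0.33 against 0.01 over all genes. TAP1, a subunit of the pump that carries proteasome peptides into the endoplasmic reticulum, had 111.3 and 125.5 CPM in OE-WT and 160.5 and 148.1 in CTRL cells, a log2 fold change of -0.38. TAP2, TAPBP, B2M, HLA-B, HLA-C and the class I transactivator NLRC5 fell by between 0.28 and 0.88 on the log2 scale, and NLRC5 was not called in DESeq2 (adjusted p = 0.0516). The HLA genes share near-identical stretches, which may have split reads among them. The call of B2M was lost without OE-WT library 2 (adjusted p = 0.0511) or CTRL library 1 (adjusted p = 0.0785). The counts of PSMB9 divided by those of TAP1 were 0.0787 and 0.0673 in OE-WT cells, against 0.0959 and 0.105 in CTRL cells, without overlap. TAP1 lies within the span of PSMB9 on the opposite strand, and the part of this position in the counts was not tested.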

How the data were processed

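RNA sequencing of 2 OE-WT and 2 CTRL libraries of DLD1 cells was analysed. The authors deposited raw read counts per gene, with the 2 lanes of each library in 1 column and 0 columns of other samples. The submitters' processing notes name HISAT2 2.2.1, featureCounts 2.0.0 and DESeq2 1.34.0 on GRCh38. The methods of the study name HTSeq and edgeR, describe removal of ribosomal RNA where the labels describe poly(A) selection, and give more replicates than the labels. The annotation release and the strand setting are not given in the sources used here. Reads shared by overlapping genes may be lost under either counter.

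GENCODE 44 gave symbols, biotypes and exons for 57532 of 58302 gene identifiers. Counts were tested with edgeR 4.0.16 in R 4.3.3, with filterByExpr by group (minimum count 10), TMM factors, the quasi-likelihood test and Benjamini-Hochberg adjustment over 14133 genes. CPM used the TMM-scaled library sizes. A count of 0 allows up to 3 counts, between 0.233 and 0.302 CPM, which covers counting error only. Levels per kb used the merged exons, and the canonical transcript where named. Alternatives were DESeq2 1.42.0, RLE size factors in place of TMM, scaling by library size only, a looser filter (1 count) and a stricter one (10 counts per library), a GC trend (lowess, span 0.3), a replicate block, and each library left out. With a library left out the arm with 1 library was assumed to vary like the other. The edgeR steps were tested on simulated counts with absolute log2 fold changes of 1 or more. Changes as small as those of the called members were not covered. Python 3.11.15 and matplotlib 3.10.9 drew the figures.

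The members and lists were chosen with earlier results of these data known. Any member could be named. Of the other lists, genes with an adjusted p below 0.05 and NFE2L1, POMP and TAP1 were named, with TRMT6 and TRMT61A as a check of the labels. Some genes of the ubiquitin and peptide loading lists are not reported here, and the counts of these lists leave them out. ADRM1, SEM1, DDI1, DDI2, NFE2L2, NRDE2, FTSJ3 and the cell type markers were named after their values were seen. Whether the replicate numbers pair the libraries is not given in the sources used here. The deviations of same-numbered libraries from their group means had a correlation of -0.0681 across genes. With 2 libraries per group both numbers give this same value, so it cannot decide the question.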

Additional observations from a re-analysis of the deposited data

How the results depend on the processing

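The 17 higher and 1 lower calls among members became 17 and 1 with RLE size factors and under the stricter filter (10 counts per library). They became 5 and 4 with library size only, 6 and 1 with DESeq2, and 9 and 1 with any gene of at least 1 count. With the GC trend removed they were 14 and 2, where 14051 genes were tested. With each library left out, between 6 and 12 were higher and 1 was lower, and 1 member passed the fold threshold without OE-WT replicate 2 or without CTRL replicate 1, where it was PSMA2 with few counts, against 0 otherwise. All genes called numbered 2976 in edgeR, 1377 in DESeq2 and between 1923 and 2721 with a library left out. The median log2 fold change of members was 0.16, 0.067 with library size only, and between 0.15 and 0.19 with a library left out. PSMB9, PSMC1, PSMC5 and PSMD11 were called in all 7 alternatives that kept the 4 libraries. The difference in the share of counts on proteasome genes, 0.00968 percentage points, was 0.0732 over protein-coding nuclear genes only. That in the immune share of the cutting subunits, -1.33 percentage points by merged exons, was -2.48 with counts not divided by length and -2.30 by canonical transcripts, a length chosen after seeing the data. The median 19S level per kb over the median of the 14 constitutive 20S genes tested was 0.355 by merged exons, 0.446 by the longest transcript and 0.561 by canonical transcripts. The causes of these changes were not tested. No called value changed sign. In the fit with a replicate block, 12 members were higher and 1 lower. Whether the numbers pair the libraries is not known, and why calls were lost there was not tested. With 2 libraries per group, sparse genes (PSMA2, PSMA6, PSMB10) cannot show small differences.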

Other observations

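Non-coding genes named for members were also read. PSMB8-AS1, a long non-coding RNA antisense to PSMB8 on chromosome 6, had 252 and 239 counts in OE-WT cells, against 431 and 397 in CTRL cells. The groups did not overlap, and its log2 fold change was -0.43 (SE 0.10, adjusted p = 0.00333, edgeR's quasi-likelihood test), while PSMB8 itself was at 0.06. Its span also overlaps those of PSMB9 (-0.84) on the same strand and TAP1 (-0.38) on the opposite strand. Other genes cover 0% of the canonical exon bases of PSMB8 and PSMB9, and such a share was not computed for TAP1. The strand setting of the counting is not given, and the part of these overlaps was not tested. PSMA3-AS1, PSMD14-DT and PSMG3-AS1 were tested and not called, and 3 others of the 7 had too few counts. Of 44 pseudogenes named for 17 members, 34 had 0 counts in all 4 libraries and the largest count in a library was 18, for PSMC1P1. The pseudogenes of PSMC1 held 1.45% of the counts of gene and pseudogenes together, and those of PSMA2 held 13.8%.

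The members were spread over the genome, with 8 each on chromosomes 14 and 17. Their median GC content was 47.9%, against 48.4% for the protein-coding genes tested.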
